A study of Mus musculus with 6 samples.

Results

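Glucose and fructose metabolism was followed here through 7 genes: Khk, Pklr, Pkm, G6pc, Pck1, Fbp1 and Mlxipl. Every local splicing variation (LSV) named for one of them was taken from the splicing tables. An LSV is 1 exon together with all the junctions, and any retained intron, that leave it (a source LSV) or enter it (a target LSV). Of the 7 genes, 6 had LSVs for both diets, among 5978 such genes in all. They held 71 of the 26910 shared LSVs, with 224 entries, an entry being 1 junction or 1 intron end. Pkm had no LSV in the table of either diet and no entry in the other tables, so its splicing was not analysed here.

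The hepatocytes came from male C57BL/6J mice fed chow with 13.5% fat until 8 weeks of age. For the next 12 weeks they ate either a diet with 10% of its energy as fat (LFD, low-fat) or a diet with 60% fat (HFD, high-fat). Each diet had 3 libraries of isolated hepatocyte mRNA, and both groups carried no other treatment or allele in the labels. The libraries of a diet were pooled by the authors into 1 value per entry, so no spread between mice could be computed.

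In the liver, glucose is phosphorylated and passed down glycolysis to pyruvate, and the same cells run the path in reverse to release glucose during fasting. Fructose enters below the main control step of glycolysis, once ketohexokinase has phosphorylated it. The transcription factor ChREBP, encoded by Mlxipl, responds to sugar metabolites and drives genes of glycolysis, fructose metabolism and fat synthesis. Several of these genes are textbook cases of isoform choice. Khk carries alternative exons 3A and 3C, Pklr and Pkm give tissue-specific pyruvate kinases, and Mlxipl has alternative first exons.

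Khk encodes ketohexokinase, and its exons 3A and 3C are usually described as mutually exclusive. The liver enzyme KHK-C has a high affinity for fructose, and the more widely expressed KHK-A a lower one. Both exons are on chromosome 5, plus strand, build mm10, within the coding region. Exon 3A lies at chr5:30926688-30926822 and exon 3C at chr5:30927022-30927156, 199 bp apart. Each has 135 bp, or 45 codons, so exchanging, skipping or joining them keeps the reading frame. They are shown because the Khk results turn on the choice between them. The bases are those of GENCODE M21 transcript Khk-201, and capitals mark the positions at which one exon differs from the other.

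Khk exon 3A: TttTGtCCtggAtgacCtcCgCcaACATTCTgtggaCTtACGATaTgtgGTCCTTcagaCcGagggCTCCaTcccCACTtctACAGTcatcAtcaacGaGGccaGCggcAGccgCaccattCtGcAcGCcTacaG

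Khk exon 3C: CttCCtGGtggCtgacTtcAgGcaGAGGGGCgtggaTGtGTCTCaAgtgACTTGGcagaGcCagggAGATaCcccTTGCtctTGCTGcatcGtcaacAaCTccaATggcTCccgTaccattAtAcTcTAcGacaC

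The exons share 73 of 135 bases without gaps (54.1%), and the differences are spread along the whole length. Of 44 whole codons, 34 differ, and neither exon holds a stop codon in frame. The differing bases fall at the first codon position 23 times, at the second 17 times and at the third 22 times.

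Hepatocytes on both diets used exon 3C in most Khk transcripts. PSI is the fraction of an LSV's reads that use an entry, given as a posterior mean with its posterior SD, which covers reads in the pooled libraries and not mice. The posterior lies on 40 bins, so a PSI printed as 0.0125 means under 0.025, and the highest value is 0.9875. Among junctions leaving exon 2, PSI of the one to exon 3C was 0.914 ± 0.0105 on LFD and 0.906 ± 0.0120 on HFD. The junction to exon 3A had 0.0784 ± 0.0122 on LFD and 0.0811 ± 0.0120 on HFD. The difference for exon 3A was 0.0027, with an approximate 95% interval, from the posterior variances of both diets, of -0.031 to 0.036 (HFD minus LFD). That interval includes 0. The junction from exon 2 to exon 4, which skips both, was at 0.0125 on either diet.

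Reads leaving exon 3A went mostly to exon 3C and not to exon 4. This junction, found in the annotated coding transcript Khk-201 that holds both exons, took 0.863 ± 0.0237 of these reads on LFD and 0.942 ± 0.0218 on HFD. The junction from exon 3A to exon 4, as in Khk-205 with exon 3A alone, had 0.137 ± 0.0237 and 0.0582 ± 0.0218. The difference for the latter was -0.0786 (interval -0.142 to -0.0155, 2.44 times its posterior SD), the largest in Khk.

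The other Khk LSVs gave the same order of use. Among junctions entering exon 3C, the one from exon 3A had 0.0549 ± 0.0115 on LFD and 0.0578 ± 0.0104 on HFD, and the rest came from exon 2. Among junctions entering exon 4, the one from exon 3C was at 0.987 on both diets and that from exon 3A at 0.0125. Multiplying the step from exon 2 to 3A by the step out of 3A gave 0.0107 on LFD and 0.0047 on HFD for exon 3A alone. The same product for exon 3A followed by 3C was 0.0677 and 0.0764. These products take each step as separate and carry no error.

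**Figure D1:**
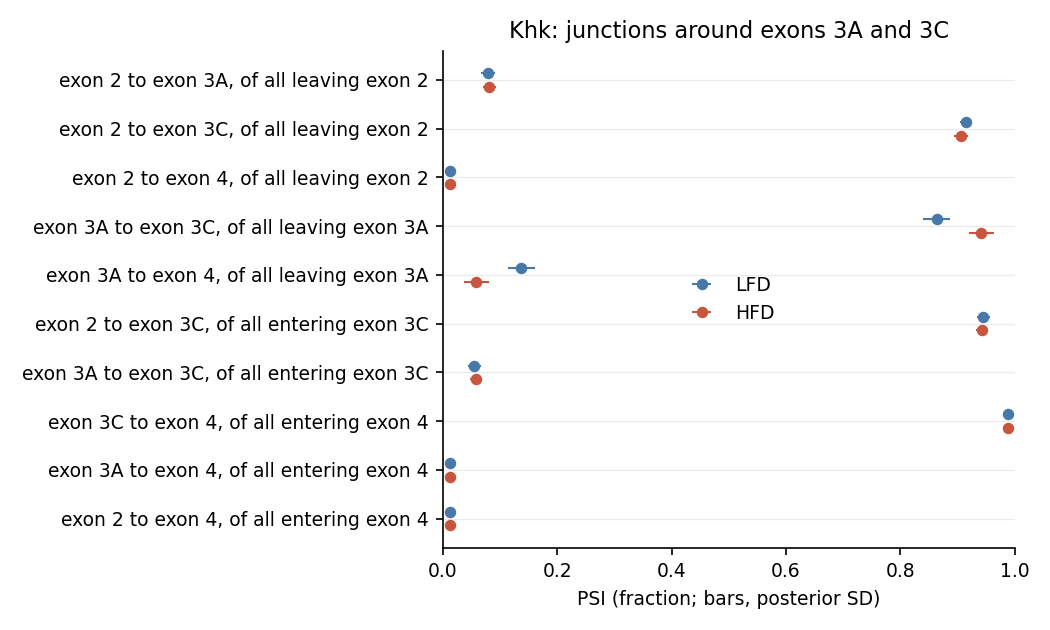
PSI (x axis, a fraction) of the 10 junctions around exons 3A and 3C of Khk, by diet (blue LFD, red HFD; bars, posterior SD). Exon 2 to exon 3C sat at 0.914 and 0.906, and the visible gap between diets was at the junctions leaving exon 3A.

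Elsewhere Khk was close to constant, with 22 of its 36 entries at or beyond an edge (PSI up to 0.025 or from 0.975) on both diets. Its coding intron of 79 bp (chr5:30930637-30930715) had 0.0155 ± 0.0081 on LFD and 0.0324 ± 0.0101 on HFD from the upstream exon. From the downstream exon it had 0.0153 ± 0.0078 and 0.0381 ± 0.0045. A junction skipping the next exon (30930636 to 30930962), in no GENCODE M21 transcript, had 0.0259 ± 0.0125 and 0.0334 ± 0.0092. All of these lie near the lower edge.

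Pklr encodes the pyruvate kinase of liver and red cells, which catalyses the last step of glycolysis. Its splicing was nearly uniform, and 23 of 32 entries were at an edge on both diets. The annotated junction 89137406 to 89141315 (chromosome 3, plus strand, coding) was at 0.929 ± 0.0119 on LFD and at 0.925 ± 0.0141 on HFD. A minor junction from the same exon to 89140851, at the start of an exon of Pklr-204 but not annotated as a pair, had 0.0135 ± 0.0048 and 0.0396 ± 0.0086. That was the largest difference in the gene, 0.0261. The same pair of junctions was in the authors' deposited table from JUM, a second splicing program, with changes of 0.0241 and -0.0241 (JUM p = 0.0222, adjusted p = 0.277). In this event JUM wrote the right-hand ends 2 bases to the left of the exon starts.

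Pck1 encodes the cytosolic phosphoenolpyruvate carboxykinase, which starts gluconeogenesis from oxaloacetate. Of its 48 entries 24 were at an edge on both diets, and 6 introns or parts of introns had entries, all with PSI at or under 0.0687. The last intron (103 bp, chr2:173158089-173158191) had the highest levels, 0.0524 ± 0.0123 on LFD and 0.0510 ± 0.0125 on HFD from the upstream exon. From the downstream exon its values were 0.0604 ± 0.0073 and 0.0687 ± 0.0128.

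The other Pck1 introns moved in both directions by small amounts. A stretch of 85 bp (chr2:173154460-173154544) lies inside the annotated intron between 173154116 and 173154701. It had 0.0375 ± 0.0016 on LFD and was at 0.0125 on HFD, with 0.0420 ± 0.0096 and 0.0125 from its other end. An unannotated intron of 667 bp (chr2:173156245-173156911) was at 0.0125 on LFD and 0.0381 ± 0.0042 on HFD, with 0.0233 ± 0.0124 and 0.0479 ± 0.0130 from its other end. The annotated 92-bp intron had 0.0377 ± 0.0022 and 0.0471 ± 0.0122 upstream, and 0.0385 ± 0.0049 and 0.0600 ± 0.0082 downstream. The largest difference of any Pck1 entry was 0.0351.

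Fbp1 encodes fructose-1,6-bisphosphatase, which opposes the main control step of glycolysis. All 23 of its entries were at an edge on both diets, the junctions of the main annotated transcript at 0.9875 and every other at 0.0125. The authors' deposited JUM table listed 1 event of its first exon, with changes of 0.0021 and -0.0021 (JUM p = 0.0253, adjusted p = 0.295).

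G6pc encodes the catalytic subunit of glucose-6-phosphatase, which releases free glucose. Of 17 entries 13 were at an edge. The other 4 concerned the last intron (1582 bp, chr11:101374706-101376287, plus strand, coding). It had 0.0842 ± 0.0151 on LFD and 0.0782 ± 0.0159 on HFD from the upstream exon. From the downstream exon it had 0.0763 ± 0.0152 and 0.102 ± 0.0155. The diets differed in opposite directions at its ends, by -0.0060 and 0.0258, each with a posterior SD near its own size or larger (0.0219 and 0.0218).

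Mlxipl, the ChREBP gene, had the most variable splicing of the 6 genes, with 21 LSVs and 68 entries, of which 32 were at an edge on both diets. Most of that variation lay in a cluster of short coding introns at the 3' end (chromosome 5, plus strand). Of the 5 Mlxipl entries that passed a difference of 0.05, 4 were views of these introns, and those that an annotated transcript retains are shown. Capitals mark the first and last 2 bases of an intron and the first stop codon that continues the frame of Mlxipl-201. The 120-bp intron is read from the coding transcript Mlxipl-208, which retains it. The 135-bp intron is read from Mlxipl-206, which retains it and is annotated as a target of nonsense-mediated decay. The stop codon of Mlxipl-206 lies before this intron, so that annotation does not rest on the stop codon marked here. For the 135-bp intron the first and the last 30 bases are given.

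135-bp intron, first bases: GTaaaTAGgggctagaggggtcgtgggtct

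135-bp intron, last bases: ggtctgtctgtgggtctgtccctgccacAG

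120-bp intron: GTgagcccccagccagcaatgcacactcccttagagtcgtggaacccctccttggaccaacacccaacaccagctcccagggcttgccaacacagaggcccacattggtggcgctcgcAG

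Both introns begin with GT, end with AG and have a length that is a multiple of 3. The 135-bp intron (chr5:135133409-135133543) has a stop codon in frame from its base 6. The 120-bp intron (chr5:135133874-135133993) has none, so Mlxipl-208 reads through it. MAJIQ lists only its first 73 bases as an intron (chr5:135133874-135133946), because Mlxipl-203 has an acceptor there.

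The 75-bp and 135-bp introns, and the 73-bp stretch of the 120-bp intron, had higher PSI on HFD from both ends, and 4 of these 6 views had a 95% interval that left out 0. The exceptions were the 135-bp intron from its downstream end and the 73-bp stretch from its upstream end. Retention of the whole 120-bp intron was not measured. PSI of the 135-bp intron was 0.341 ± 0.0280 on LFD and 0.423 ± 0.0313 on HFD among reads leaving the upstream exon, a difference of 0.0825, the largest of all 224 entries and 1.97 times its posterior SD. Among reads entering the downstream exon it had 0.627 ± 0.0247 and 0.669 ± 0.0293. The intron view thus exceeded the spliced junction in reads entering the downstream exon on both diets, where the junction had 0.348 ± 0.0242 and 0.316 ± 0.0289.

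The 75-bp intron just upstream (chr5:135133177-135133251) had 0.165 ± 0.0184 on LFD and 0.228 ± 0.0246 on HFD from the upstream exon. From the downstream exon it had 0.163 ± 0.0187 and 0.235 ± 0.0241. The 73-bp stretch had 0.163 ± 0.0153 and 0.191 ± 0.0193 upstream, and 0.133 ± 0.0148 and 0.204 ± 0.0196 downstream. The last of these differences, 0.0710, was 2.89 times its posterior SD.

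The remaining Mlxipl introns did not share that direction. The 94-bp intron (chr5:135133660-135133753), which lies between the 135-bp and 120-bp introns, had 0.0265 ± 0.0124 and 0.0276 ± 0.0123 upstream, and 0.0386 ± 0.0056 and 0.0177 ± 0.0102 downstream. The 85-bp intron (chr5:135123852-135123936) had 0.0164 ± 0.0091 on LFD and 0.0125 on HFD upstream, and 0.0358 ± 0.0085 and 0.0125 downstream. The 147-bp intron (chr5:135121589-135121735) was under 0.025 on both diets.

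**Figure D2:**
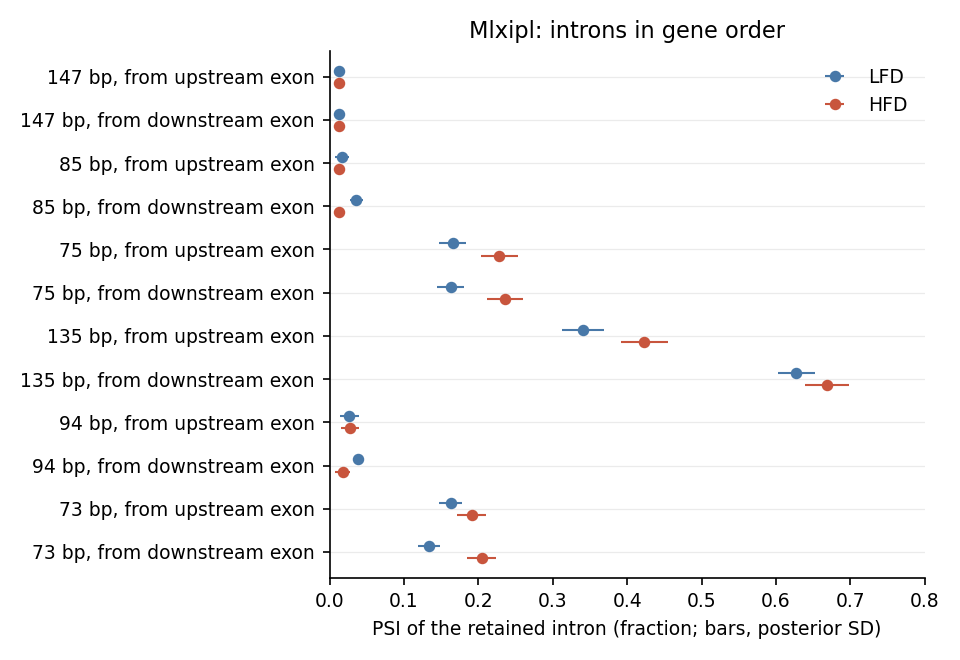
PSI (x axis, a fraction) of the 6 Mlxipl introns, each seen from its upstream and its downstream exon, by diet (blue LFD, red HFD; bars, posterior SD). The 75-bp, 135-bp and 73-bp introns had higher values on HFD from both exons, and the other 3 introns stayed at or under 0.0386.

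Mlxipl also used competing splice sites at steady levels. The acceptor at 135133081, which adds 28 bases to the exon (Mlxipl-204, annotated as a target of nonsense-mediated decay), had 0.107 ± 0.0154 on LFD and 0.118 ± 0.0167 on HFD. The main acceptor at 135133109 had 0.880 ± 0.0160 and 0.870 ± 0.0175. The added bases are given because their number shifts the frame.

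Mlxipl added bases, chr5:135133081-135133108: tggtcctcatagtcctgcctgtacccag

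Further alternatives in Mlxipl were smaller or more even. A pair of acceptors 3 bases apart had 0.625 ± 0.0249 on LFD and 0.588 ± 0.0318 on HFD at 135133252, and 0.201 ± 0.0206 and 0.169 ± 0.0199 at 135133255. Skipping of the 202-bp exon chr5:135123650-135123851, in no GENCODE M21 transcript, had 0.0703 ± 0.0136 and 0.0514 ± 0.0137 among reads leaving the exon before. The junction out of that exon to 135123937 had 0.905 ± 0.0147 and 0.956 ± 0.0118 among reads entering the exon after, a difference of 0.0509. A donor at 135113722, 11 bases short of the annotated one, had 0.0908 ± 0.0137 and 0.0933 ± 0.0161.

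The first exon of Mlxipl was read by JUM only. Exon 1a (ending at 135107215) begins the transcript for the full-length ChREBP-alpha, and exon 1b (ending at 135090060, Mlxipl-210), 17001 bp upstream, that for the shorter ChREBP-beta, whose promoter is known to respond to ChREBP itself. In the authors' deposited JUM table, the share of the junction from exon 1b into the common next exon was lower on HFD by a PSI change of -0.121. That from exon 1a changed by 0.121 in the same deposited event of the authors (JUM p = 0.00585, adjusted p = 0.127), so it did not pass an adjusted p of 0.05. No Mlxipl LSV covered this choice. The 250 bases before each RefSeq start (GRCm38.p6) are shown with CACGTG, the core of the E-box that ChREBP-like factors bind, in capitals.

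Exon 1b, chr5:135089640-135089889: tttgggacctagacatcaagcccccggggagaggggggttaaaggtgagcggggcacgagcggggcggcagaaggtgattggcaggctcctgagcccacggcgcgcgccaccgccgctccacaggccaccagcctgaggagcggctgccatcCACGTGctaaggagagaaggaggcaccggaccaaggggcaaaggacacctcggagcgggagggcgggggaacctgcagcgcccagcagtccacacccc

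Exon 1a, chr5:135106641-135106890: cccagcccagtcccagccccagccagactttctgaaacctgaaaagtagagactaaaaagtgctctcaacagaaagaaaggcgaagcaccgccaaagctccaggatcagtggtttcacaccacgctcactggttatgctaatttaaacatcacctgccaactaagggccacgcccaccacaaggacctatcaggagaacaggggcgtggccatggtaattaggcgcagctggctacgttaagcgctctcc

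CACGTG reads the same on both strands. It occurs once before exon 1b, 92 bases from the start, and not in these 250 bases before exon 1a. Of 32851 start regions of the same length, 1978 (6.02%) hold it. Of the 10 start regions of the 7 genes, that of Khk also holds it, and those of Fbp1, G6pc and Pck1 and both of Pklr and of Pkm do not. A match is a description of letters and not of binding.

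None of the 6 measured genes reached a PSI difference of 0.2 with a 95% interval that left out 0. Over all 5978 genes, 138 (2.31%) did. At a lower limit of 0.05, with the same demand on the interval, 7 of the 224 entries passed, in Khk (2) and Mlxipl (5). Of all 68110 entries 7.10% passed that limit, and of all 5978 genes 27.0%. A gene counts when any 1 of its entries passes, and the number of entries per gene was not adjusted for. The shares of genes are therefore not a like comparison, and 2 genes of 6 is not read as an excess. In Khk 1 of the 2 entries was higher and 1 lower, being the complementary junctions out of exon 3A. In Mlxipl all 5 were higher on HFD. Its spliced junction 135133408 to 135133544 differed by -0.0658 among reads leaving the upstream exon. Its junction 135133873 to 135133994 differed by -0.0560 among reads entering the downstream exon. Both were lower on HFD by more than 0.05 but had intervals that included 0.

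The median over the 6 genes of the largest absolute difference was 0.0306, against 0.0310 over all genes. This measure and the ranks by it take no account of how many entries a gene has. Among all genes ranked by that difference, Mlxipl and Khk stood at percentiles 80.1 and 78.9, Pck1 at 53.5, Pklr and G6pc at 45.3 and 45.4, and Fbp1 at 2.12. Entries at an edge on both diets made up 61.2% of the members' entries and 57.2% of all. Among the 87 entries of these genes that were not at an edge, the median absolute difference was 0.0179, against 0.0260 over all such entries.

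**Figure D3:**
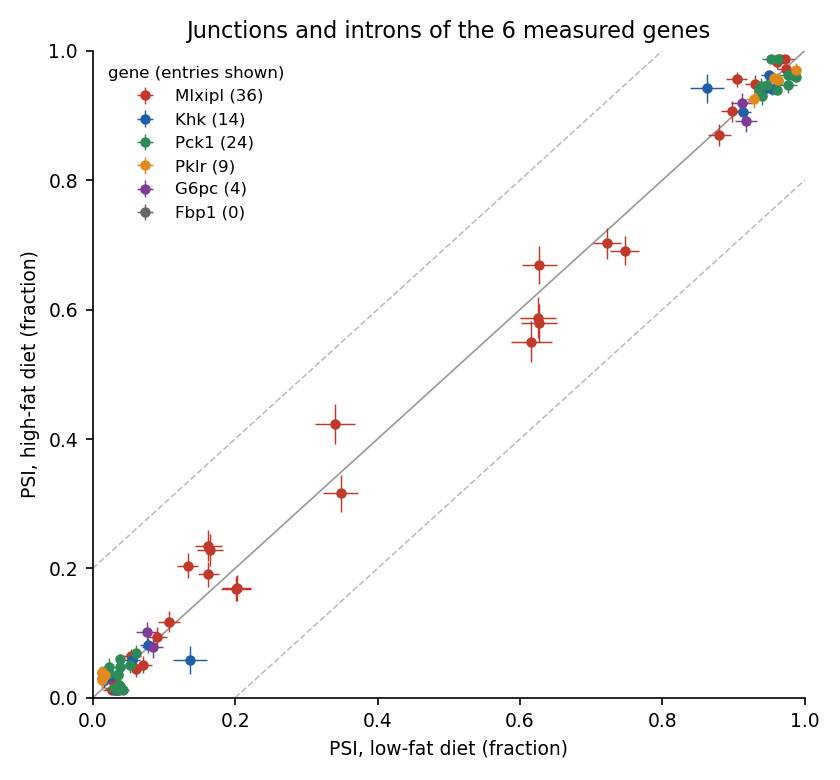
PSI on LFD (x axis) against PSI on HFD (y axis), both fractions, for the 87 entries not at an edge on both diets, coloured by gene (bars, posterior SD; solid line, equal values; dashed lines, a difference of 0.2). All points lie between the dashed lines, and those away from the corners are mostly from Mlxipl, with Khk, G6pc, Pck1 and Pklr near the corners.

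**Figure D4:**
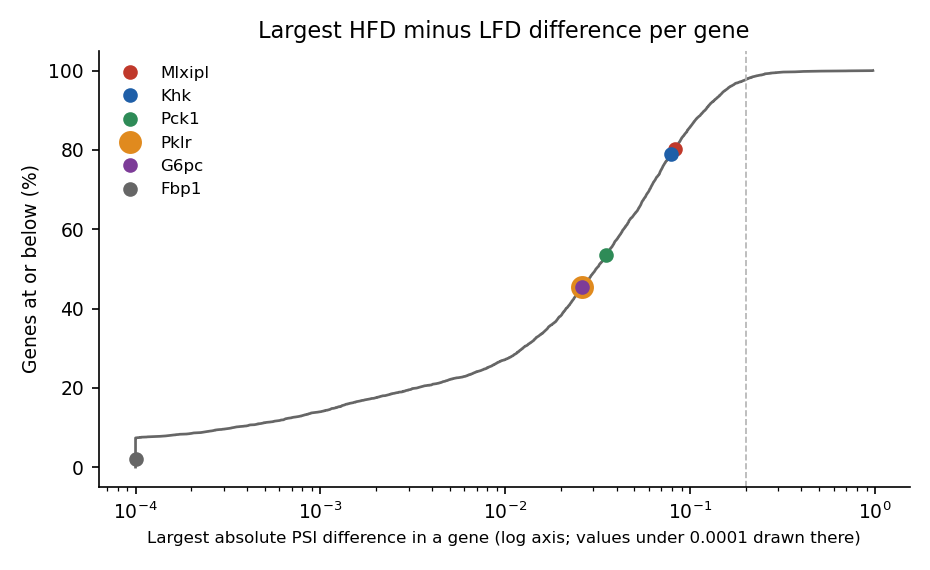
Share of the 5978 genes (y axis, percent) whose largest absolute PSI difference is at or below the value on the x axis (log axis, fraction; dashed line, 0.2), with the 6 genes marked. Mlxipl and Khk sit at 80.1% and 78.9%, Pklr (larger marker) and G6pc overlap at 45.3% and 45.4%, and Fbp1 is at the left end.

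Introns of these genes gave 38 views, an intron being seen from each neighbouring exon where both had an LSV. They cover 20 introns or parts of introns, 13 of them annotated. On HFD 16 views were higher and 8 lower by more than 0.005, and 14 lay within 0.005. That limit is smaller than many of the posterior SDs, and the share over all genes was not computed at it. The views of an intron from its neighbouring exons are also not independent, so these counts are not read as a shift. Past a difference of 0.05, 4 views were higher and 0 lower, all 4 in Mlxipl. They were 2 views of its 75-bp intron and 1 each of the 135-bp intron and the 73-bp stretch. Over 6848 intron views in all genes, 6.99% were higher and 4.89% lower at that limit.

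The authors' deposited dPSI table, which lists 124 LSVs, held none of them, and it held 1.72% of the 5978 genes. The authors' deposited JUM table listed Pklr, Fbp1 and Mlxipl, 3 of 6 genes, against 5.70% of all. Its events were listed at an unadjusted JUM p under 0.05, and the number of junctions per gene was not adjusted for. The JUM adjusted p of these 3 genes was 0.277, 0.295 and 0.127, so the listing is not read as an excess. At a JUM adjusted p under 0.05 the JUM table held none of the 6, against 1.05% of all.

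Among 97 further genes of sugar metabolism, 61 had LSVs for both diets, and 1 of these passed a difference of 0.2 (2.31% of all genes did) and 16 passed 0.05 (27.0% of all genes). The counts of each list below are read against the same shares. The gene past 0.2 was G6pdx, glucose-6-phosphate dehydrogenase, which opens the pentose phosphate pathway. On LFD its junction 74424710 to 74427762 (X chromosome, minus strand), in no GENCODE M21 transcript, had a PSI of 0.608 ± 0.0420, and on HFD 0.915 ± 0.0339. The competing annotated junction 74415153 to 74428052 fell from 0.372 ± 0.0416 to 0.0798 ± 0.0331. The authors' deposited dPSI table gave 0.607 and 0.913 for the former. The other 5 measured pentose phosphate genes did not pass that limit. H6pd, the related enzyme of the endoplasmic reticulum, had 0.807 ± 0.0191 and 0.903 ± 0.0172 at its most different junction.

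In glycolysis and gluconeogenesis, 28 of 44 genes were measured, 0 passed 0.2 and 6 passed 0.05. Pdk4, a kinase that shuts off pyruvate dehydrogenase, had an annotated 152-bp intron at 0.0130 ± 0.0035 on LFD and 0.175 ± 0.0492 on HFD. Gckr was listed for a retained intron with a change of 0.0925 in the authors' deposited JUM table (JUM adjusted p = 0.0857). Aldoa, Pfkfb1 and Pdhb differed by 0.0948, -0.0939 and -0.0633. Gpd1 was listed in the authors' deposited JUM table with a change of 0.0050 (JUM adjusted p = 0.114).

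In fructose, polyol and galactose metabolism, 9 of 15 genes were measured, 0 passed 0.2 and 2 passed 0.05. Slc2a9, a urate and hexose transporter, had a 5' UTR junction at 0.986 ± 0.0066 on LFD and 0.825 ± 0.0415 on HFD. Galt, of the galactose pathway, had an unannotated junction at 0.152 ± 0.0226 and 0.0479 ± 0.0165. Slc2a2 and Dak differed by 0.0269 and -0.0249.

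For glycogen, 12 of 18 genes were measured, 0 passed 0.2 and 3 passed 0.05. Pygl, liver glycogen phosphorylase, had an unannotated 5' UTR junction at 0.447 ± 0.0330 on LFD and 0.315 ± 0.0441 on HFD. Among transcriptional controllers, 7 of 13 were measured, 0 passed 0.2 and 2 passed 0.05. Crtc2, a coactivator of gluconeogenic genes, had a 150-bp intron at 0.163 ± 0.0349 and 0.0135 ± 0.0053. Srebf1, which drives fat synthesis, had 0.741 ± 0.0241 and 0.827 ± 0.0198 at an annotated coding junction. Txnip, a target of ChREBP that limits glucose uptake, differed by 0.0649, and Mlx, the dimer partner of ChREBP, by -0.0581.

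Splicing regulators described for Pkm or Khk had 8 of 10 genes measured, of which 1 passed 0.2 (2.31% of all genes) and 5 passed 0.05 (27.0% of all genes). Rbm4 had a 5' UTR junction at 0.485 ± 0.0454 on LFD and 0.762 ± 0.0425 on HFD. Its competing junction changed by -0.383 in the authors' deposited JUM table (JUM adjusted p = 0.0385). Hnrnph1 skipped an exon at 0.145 ± 0.0239 on LFD and 0.280 ± 0.0372 on HFD. In Hnrnpa1 a coding junction had 0.986 ± 0.0059 and 0.874 ± 0.0215. Hnrnpa2b1 and Srsf3 differed by 0.0750 and -0.0609. Whether these values bear on Khk was not tested.

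**Figure D5:**
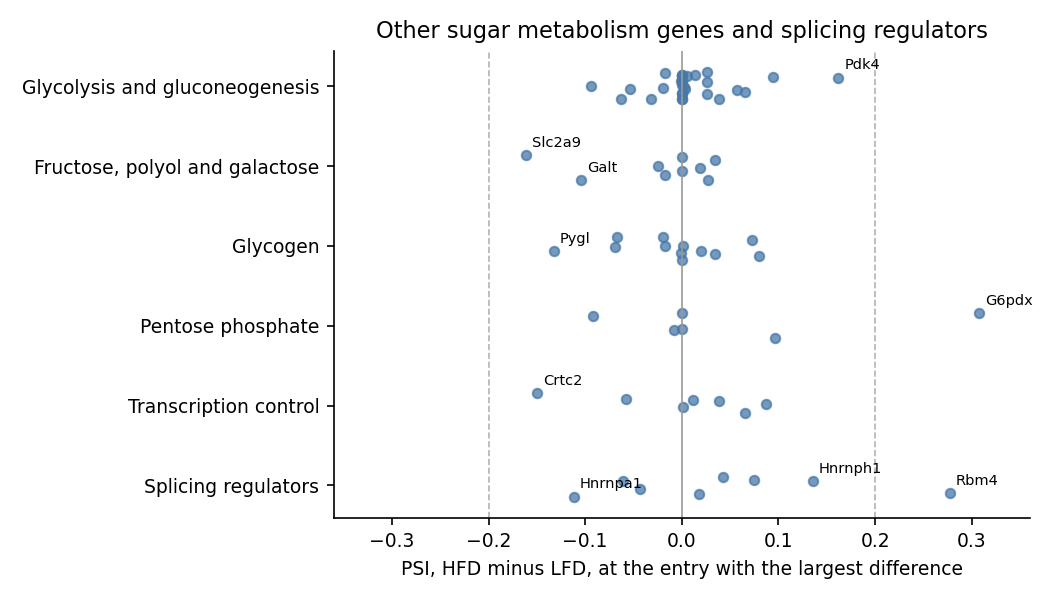
HFD minus LFD difference in PSI (x axis) at the entry with the largest difference in each measured gene, by list (1 point per gene and list; vertical scatter has no meaning; dashed lines, differences of 0.2). G6pdx and Rbm4 lie beyond 0.2, and genes beyond 0.1 in either direction are named.

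Both diets' tables had LSVs for 9 of 10 hepatocyte markers. They had LSVs for 2 of 7 macrophage, 2 of 6 endothelial, 1 of 6 stellate, 1 of 5 bile duct and 0 of 3 other leukocyte markers. An LSV shows that spliced reads were present and not how abundant a gene was. There were 32268 LSVs for LFD and 27441 for HFD, and posterior SDs at 7126 entries with intermediate PSI had medians of 0.0286 on LFD and 0.0321 on HFD. Read depth per library is unknown.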

How the data were processed

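The labels' protocols describe stranded mRNA libraries read from both ends. Per the submitters' processing notes, FastQC and STAR were used with build mm10 (versions not given in the sources used here). PSI is a fraction from 0 to 1 that the authors deposited, with its posterior variance, as 1 pooled value per diet and junction. Per the file headers these tables came from MAJIQ's viewer voila. The authors also deposited a dPSI table from a run labelled strict in the header's folder name, and a JUM table of 470 events with p under 0.05. The JUM title line names NC livers, but the heading of the change column (HFD minus LFD) was followed.

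LSVs were matched between diets by their ID (Python 3.11.15, pandas 2.3.3, numpy 2.4.6). An entry was called when its PSI differed by at least 0.2 and by more than 1.96 times the posterior SD of the difference; 0.1 and 0.05 were alternatives. The rule was tried on values simulated from the same posterior variances, for entries away from the edges. That trial held no spread between mice, so it says nothing of error from mice or of entries at an edge. The rule compares the pooled diets and not mice. Coordinates and transcripts were read from GENCODE M21 (GRCm38, the same build as mm10), and start regions from RefSeq. All 7 members were named, and of the other genes those past the rule, those in the dPSI or JUM tables, and by rule the 5 per list with the largest difference at a posterior SD under 0.05, of which some are given and some are not reported here. The members and lists were chosen with earlier results of these data known. Lists were described by counts, without a set test.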

Additional observations from a re-analysis of the deposited data

How the results depend on the processing

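No member passed a PSI difference of 0.2 or, as an alternative, 0.1, and the same count of 0 was found with a stricter posterior limit, with a posterior SD limit of 0.05, with matching by coordinates and without entries of length 0. With a limit of 0.05 the count was 2 genes. Among the other sugar metabolism genes the count went from 1 to 6 with a limit of 0.1 and to 16 with 0.05. The Khk exon 3A share, 0.0784 on LFD and 0.0811 on HFD from exon 2, was 0.0790 and 0.0822 among the exon 3 junctions alone. Among junctions entering exon 4, the one from exon 3A was 0.0125 on LFD and 0.0125 on HFD, the lowest value the posterior bins allow. That entry leaves out exon 3A followed by 3C, so it does not measure the same share. JUM limits of 0.01 and 0.1 on the adjusted p also gave 0 members. No paired analysis was possible because the deposited values are pooled per diet, and for the same reason no library could be left out. The posterior SDs cover reads only, and PSI under 0.025 cannot be resolved.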
